A study of Bos taurus with 6 samples.

Results

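The genes described here are the integrin subunits of bovine primordial follicles (PMF), namely the alpha subunit genes ITGA2, ITGA3, ITGA4, ITGA5, ITGA6, ITGA7 and ITGAV and the beta subunit genes ITGB1, ITGB3 and ITGB5. They were taken as a list of 10 gene symbols, and all 10 were found among the 23704 genes that the files name. RNA of pooled PMF was sequenced in 3 libraries after 16 h of culture (T16) and in 3 libraries of PMF collected at the start (T0). The follicles came from abattoir ovaries of Holstein Friesian cattle and were isolated mechanically. By the study's methods, isolated PMF recovered for 1 h in a medium that held FSH, insulin, transferrin and selenium before lysis, which is read here as the T0 state, and the medium in which the T16 follicles were cultured is not given in the sources used here. Each library is a pool of many follicles, it is not stated whether different pools held follicles of different animals, and p-values therefore measure the spread between pools, which may be partly technical. The pooled follicles hold oocytes and pre-granulosa cells, and in such bulk RNA fewer cells of a type and less RNA per cell cannot be told apart.

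Integrins are receptors that join the extracellular matrix to the actin cytoskeleton. Each receptor is a pair of an alpha and a beta subunit, the alpha subunit largely sets which ligand is bound, and the tail of the beta subunit recruits talin, kindlins and kinases inside the cell. In a primordial follicle the oocyte and its flat pre-granulosa cells lie on a basement membrane of laminins and type IV collagen, and integrins of the granulosa layer are the usual contact with it. ITGB1 pairs with most of the alpha subunits listed, whereas ITGB3 and ITGB5 pair with ITGAV.

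The total of estimated counts lay between 22174653 and 36703016 per library. The libraries differed within each group as well as between them. The TPM of 11 oocyte markers summed to 1716, 74.8 and 672 in T16 replicates 1, 2 and 3 and to 440.5, 1728 and 2492 in T0 replicates 1, 2 and 3, so that T16 replicate 2 and T0 replicate 1 held the least oocyte RNA. All 11 markers had counts in every library, but 6 of them were under 1 TPM in T16 replicate 2. Most of the sum in that library came from KIT (39.5 TPM) and ZP3 (20.3 TPM). Where leaving out T16 replicate 2 or T0 replicate 1 moved a member's value by much, both values are given.

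After culture, ITGB5 was the subunit gene whose level lay farthest from that of T0 pools relative to the spread between pools, ITGA6 came next, and most other subunit genes varied as much within the groups as between them. ITGB5 averaged 97.3 TPM in T16 libraries and 343 TPM in T0 libraries, ITGB1 averaged 87.1 TPM in T16 libraries and 71.8 TPM in T0 libraries, and ITGA6 averaged 68.1 TPM in T16 libraries and 139 TPM in T0 libraries (SD 43.4 and 75.3, 14.5 and 8.07, 46.1 and 31.2 TPM, n = 3 each). TPM is a share of all transcripts that corrects for transcript length, so it can be compared between genes of a library. In the test across all 14639 genes with enough counts (edgeR, quasi-likelihood, two-sided, Benjamini-Hochberg adjusted p below 0.05), none of the 10 subunit genes passed, and 0.041% of all genes did (0.0342% higher and 0.00683% lower in T16). At an unadjusted p under 0.05, edgeR called 1 of the 10, ITGB5, beside 13.8% of all genes (8.61% higher and 5.14% lower in T16). At an adjusted p below 0.05, DESeq2, the tool used in the study, called the same gene alone, beside 6.96% of all genes. Of the 10 genes, 5 had a log2 fold change (T16 over T0) below 0, with a median of -0.38 over the list, against 53.4% below 0 and a median of -0.08 over all genes tested.

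**Figure D1:**
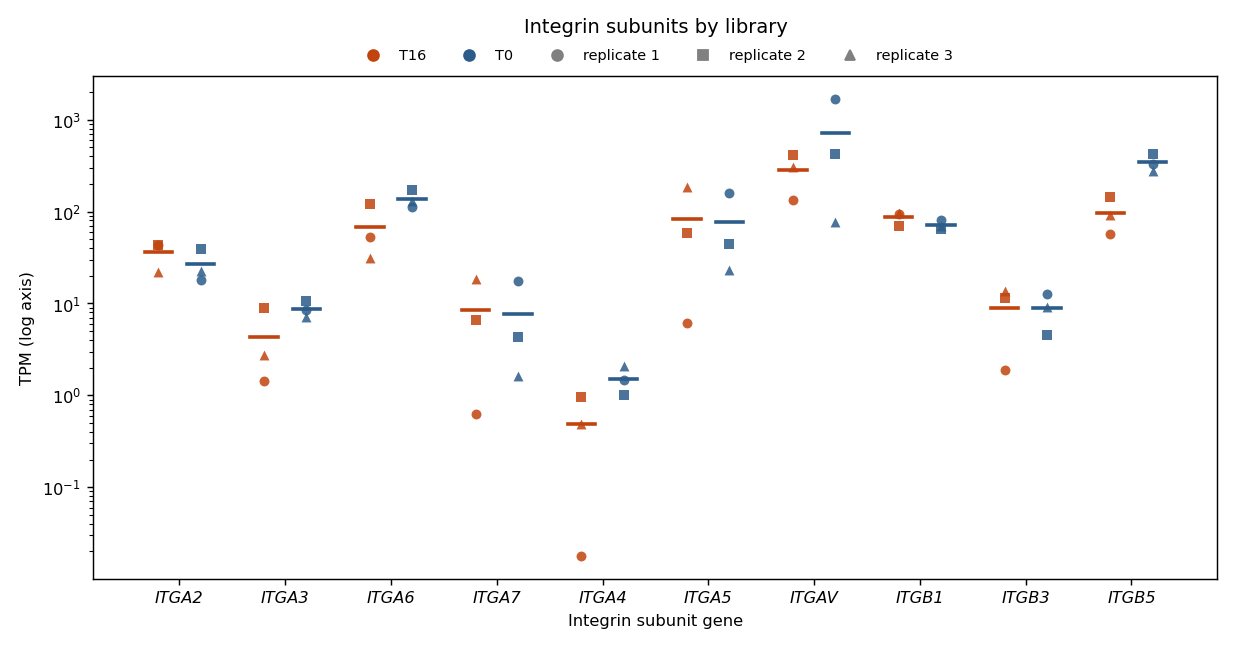
TPM of the 10 integrin subunit genes in each library on a log axis, with T16 (orange) left of T0 (blue), a point shape for each replicate number and a line at the group mean. The 3 T16 points of ITGB5 lie below its 3 T0 points, and ITGB1 has nearly the same level in all 6 libraries, whereas ITGA5, ITGA7 and ITGAV spread over more than a decade within a group.

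The beta subunits come first, since every receptor needs one. ITGB5 encodes the beta subunit that forms a vitronectin receptor with ITGAV. It had 56.6, 143 and 92.4 TPM in T16 replicates 1, 2 and 3, against 326, 425 and 278 TPM in T0 replicates 1, 2 and 3. Every T16 library was below every T0 library, also in CPM (counts relative to the library total, here after TMM scaling), where the T16 libraries had 104, 275 and 213 CPM and the T0 libraries 686, 744 and 480 CPM. Its log2 fold change was -1.69 (SE 0.44), with an unadjusted p of 0.00596 and an adjusted p of 0.151 by edgeR. DESeq2 gave -1.75 and an adjusted p of 0.00486. Without T0 replicate 2, which held the highest value, this call was lost (-1.62, adjusted p = 0.125 by DESeq2). In that setting DESeq2 called 313 genes in all, against 1019 with all libraries. Without both T0 replicate 1 and T16 replicate 2 the change was -1.95 with an adjusted p of 0.162 by edgeR and -1.97 with an adjusted p of 0.00283 by DESeq2.

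Of 8 granulosa cell markers, 3 (FOXL2, FSHR and WNT6) were also lower in every T16 library than in any T0 library in CPM. The same held for 10.6% of all genes tested. FOXL2, a transcription factor of granulosa cells, had 3.37, 20.1 and 15.1 TPM in T16 libraries, against 38.5, 141 and 37.3 TPM in T0 libraries, and like ITGB5 it was highest in replicate 2 of each group. The 8 granulosa markers summed to between 212 and 995 TPM in T16 libraries and between 641 and 1588 TPM in T0 libraries, with only FSHR at 0, in T16 replicate 3. GATA4 had its highest value in T16 replicate 2 (198 TPM), and KITLG had 76.3, 77.2 and 53.0 TPM in T16 libraries, against 69.9, 30.8 and 40.5 TPM in T0 libraries. Of the 8, 7 had a log2 fold change below 0, none was called by edgeR and 2 were called by DESeq2, beside 6.96% of all genes. At an unadjusted p under 0.05, edgeR called 3 of the 8, all lower, beside 5.14% of all genes called lower. The summed TPM of 7 markers of smooth muscle and pericytes also lay apart, at 23.4 to 104.5 in T16 libraries and 112 to 435 in T0 libraries. By gene, 6 of them were tested, and 3 lay wholly lower in T16 libraries in CPM, beside 10.6% of all genes. TAGLN, CNN1 and DES overlapped between the groups. ACTA2 and MYH11 were at 0 in T16 replicate 1, RGS5 in T16 replicate 2 and NOTCH3 in T16 replicates 2 and 3. The part of either cell type in the ITGB5 difference was not tested.

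ITGB1, the beta subunit shared by the collagen, laminin and fibronectin receptors, was the steadiest member. It had 94.1, 70.5 and 96.9 TPM in T16 libraries, against 80.9, 65.4 and 69.1 TPM in T0 libraries. The groups overlapped, and the highest T16 value was 1.37 times the lowest, against a median of 2.46 times for all genes tested with a value above 0 in every library of T16. In T0 libraries the same ratio was 1.24 for ITGB1 and 2.11 as the median. Its log2 fold change was 0.37 (SE 0.34, adjusted p = 0.714 by edgeR).

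ITGB3, which pairs with ITGAV in adhesive cells and with ITGA2B in platelets, had a low level. Its values were 1.88, 11.5 and 13.6 TPM in T16 libraries, against 12.7, 4.58 and 9.26 TPM in T0 libraries. The groups overlapped widely, and the log2 fold change was 0.16 (SE 0.80, adjusted p = 0.958 by edgeR), with values of -0.43 (T16 replicate 3 out) and 0.66 (T0 replicate 1 out) at the ends when 1 library was left out. ITGA2B itself had at most 0.0677 TPM in a T16 library and at most 0.455 TPM in a T0 library.

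With ITGB5 low in T16 libraries and ITGB1 at a similar level in both groups, the makeup of the beta subunit RNA differed between the groups. ITGB5 made up 37.1%, 63.6% and 45.5% of the summed TPM of ITGB1, ITGB3 and ITGB5 in T16 replicates 1, 2 and 3, against 77.7%, 85.9% and 78.0% in T0 replicates 1, 2 and 3. ITGB1 made up 61.7%, 31.3% and 47.8% in T16 libraries, against 19.3%, 13.2% and 19.4% in T0 libraries. Both shares were separated between the groups, as was the ratio of ITGB5 to ITGB1, from 0.602 to 2.03 in T16 libraries and from 4.02 to 6.50 in T0 libraries. In 2 of the 3 T16 libraries ITGB1 was above ITGB5, and in all 3 T0 libraries it was below. The sum of the 3 genes was 193 TPM (SD 37.1, n = 3) in T16 libraries and 424 TPM (SD 69.8, n = 3) in T0 libraries. These sums and ratios restate the values of the single genes and carry no test of their own.

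**Figure D2:**
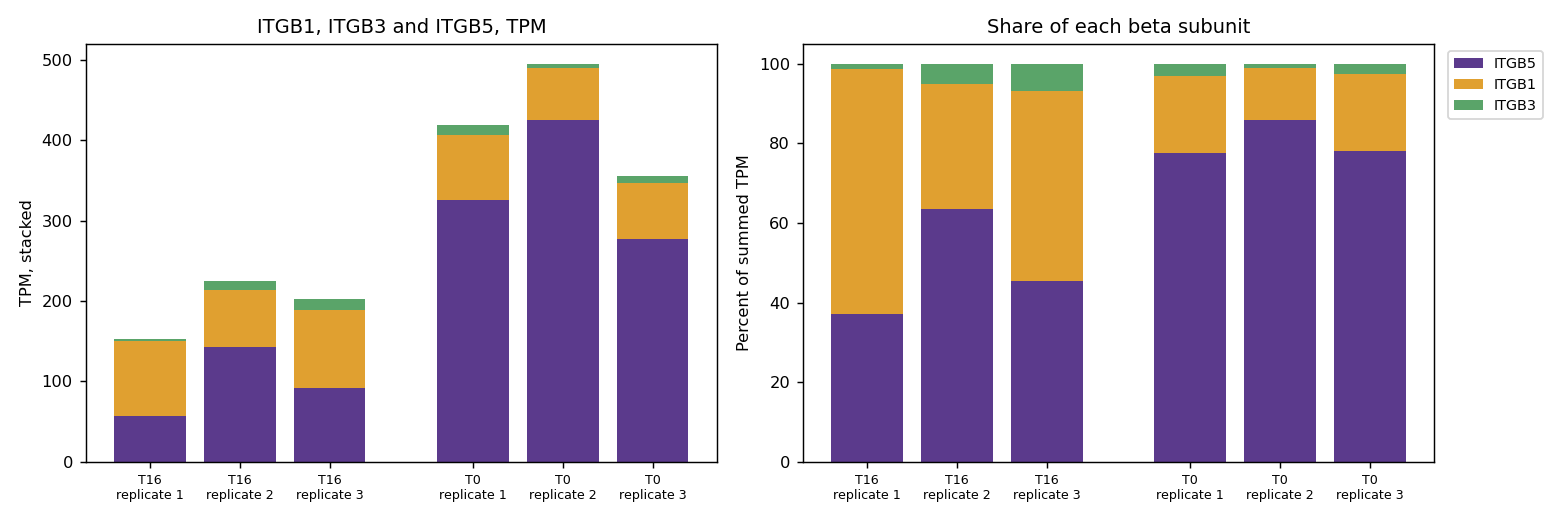
Stacked bars of ITGB5, ITGB1 and ITGB3 for each library, in TPM on the left and as percent of their sum on the right, with T16 libraries left of T0 libraries. ITGB5 takes 37.1% to 63.6% of the sum in T16 libraries and 77.7% to 85.9% in T0 libraries, while the height of the ITGB1 segment in TPM is similar in all 6.

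Of the alpha subunits, ITGAV had the highest mean in both groups. It encodes the alpha subunit that binds ligands with an RGD motif, such as vitronectin and latent TGF-beta. It had 135, 414 and 303 TPM in T16 replicates 1, 2 and 3, against 1667, 419 and 77.2 TPM in T0 replicates 1, 2 and 3. The T0 libraries spanned a 21.6-fold range around the T16 values, and T0 replicate 1 and T0 replicate 3 were the highest and the lowest of all 6 libraries. The log2 fold change was -1.33 (SE 1.04, adjusted p = 0.660 by edgeR), and it turned to 0.37 without T0 replicate 1 and to 0.06 without both T0 replicate 1 and T16 replicate 2. The direction of the ITGAV difference thus rests on 1 library. ITGAV was above ITGB1 in all 6 libraries, by 1.44 to 5.87 times in T16 libraries and by 1.12 to 20.6 times in T0 libraries.

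Keratin genes also varied widely within the groups, KRT8 and KRT18 in the library order of ITGAV and KRT19 in another. KRT8, a keratin of simple epithelia, had 241, 6286 and 1908 TPM in T16 replicates 1, 2 and 3, against 7671, 2383 and 419 TPM in T0 replicates 1, 2 and 3. KRT18 had 197, 1341 and 474 TPM in T16 libraries, against 1277, 349 and 63.3 TPM in T0 libraries. Within T16, ITGAV, KRT8 and KRT18 were highest in replicate 2 and lowest in replicate 1. Within T0, they were highest in replicate 1 and lowest in replicate 3. KRT19 instead had 237, 31.5 and 234.5 TPM in T16 libraries, against 46.3, 158.5 and 206 TPM in T0 libraries, lowest where ITGAV was highest in each group. The 7 markers of the ovarian surface epithelium, of which KRT8 is the most abundant, summed to between 814 and 7661 TPM in T16 libraries and between 843 and 9023 TPM in T0 libraries. Of these markers, KRT7 had too few counts for the test. The mean log2 CPM of the other 6, in which each marker weighs the same, was 5.37, 4.50 and 5.61 in T16 libraries and 5.11, 5.67 and 5.31 in T0 libraries. This mean did not follow ITGAV. KRT7 was at 0 in all T16 libraries and LRRN4 in T0 replicate 1. KRT8 and KRT18 are also made by granulosa cells. The part of any such cells in the ITGAV levels was not tested.

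ITGA5, the alpha subunit of the main fibronectin receptor, varied more than ITGAV within T16 and less within T0. Its range was 30.2-fold in T16 libraries and 6.89-fold in T0 libraries, against 3.06-fold and 21.6-fold for ITGAV. It had 6.07, 58.5 and 184 TPM in T16 libraries, against 161, 44.3 and 23.3 TPM in T0 libraries. The groups overlapped over most of their range, since the lowest and the highest value both came from T16. The log2 fold change was 0.26 (SE 1.21, adjusted p = 0.955 by edgeR), and with 1 library left out its lowest value was -1.33 (T16 replicate 3 out) and its highest 1.63 (T0 replicate 1 out). ITGA4, whose receptor binds VCAM1 and another site of fibronectin, was the lowest member, with 0.0179, 0.956 and 0.485 TPM in T16 libraries, against 1.48, 0.997 and 2.07 TPM in T0 libraries. These ITGA4 values rest on 1, 47 and 15 estimated counts in T16 libraries and 53, 29 and 103 in T0 libraries. The T16 values of ITGA4 were all lower in TPM but not in TMM-scaled CPM, and its log2 fold change was -1.50 (SE 1.39, adjusted p = 0.721 by edgeR). With 1 library left out it lay between -3.20 (T16 replicate 2 out) and -0.87 (T0 replicate 3 out), and without both T0 replicate 1 and T16 replicate 2 it was -3.24 (adjusted p = 0.388 by edgeR).

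The laminin receptors were led by ITGA6, a subunit of basal cell surfaces that pairs with ITGB1 or ITGB4. ITGA6 had 53.4, 119.7 and 31.1 TPM in T16 libraries, against 112, 173 and 131.5 TPM in T0 libraries. In TPM the groups overlapped only through T16 replicate 2, which was just above T0 replicate 1, and in TMM-scaled CPM they did not overlap, with 170.4, 387 and 128 CPM in T16 libraries and 407, 524 and 393 CPM in T0 libraries. ITGA6 and ITGB5 were the 2 of 10 members whose CPM did not overlap, both with T16 below, beside 23.8% of all genes tested (10.6% with T16 below). The log2 fold change of ITGA6 was -0.95 (SE 0.47, adjusted p = 0.434 by edgeR). It did not pass by DESeq2 either (adjusted p = 0.269). Without T16 replicate 2 its change was -1.57 (adjusted p = 0.126 by edgeR). DESeq2 then called ITGA6 and ITGA3 as well as ITGB5, among 1577 genes in all, against 1019 with all libraries. Without both T0 replicate 1 and T16 replicate 2 the change of ITGA6 was -1.63 (adjusted p = 0.139 by edgeR). There DESeq2 called ITGA6 but not ITGA3, among 1633 genes in all.

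ITGA3, a receptor subunit for laminins of epithelial basement membranes, had 1.42, 8.86 and 2.73 TPM in T16 libraries, against 8.56, 10.5 and 7.08 TPM in T0 libraries. Only T16 replicate 2 reached the T0 range, and the log2 fold change was -0.92 (SE 0.70, adjusted p = 0.641 by edgeR). It was -1.86 without T16 replicate 2 (adjusted p = 0.217 by edgeR), -0.56 without T16 replicate 1, and -1.78 without both T0 replicate 1 and T16 replicate 2 (adjusted p = 0.299 by edgeR). ITGA7, known as the laminin receptor subunit of muscle, had 0.631, 6.53 and 18.3 TPM in T16 libraries, against 17.4, 4.28 and 1.62 TPM in T0 libraries. Its groups overlapped fully, with a log2 fold change of 0.25 (SE 1.31, adjusted p = 0.962 by edgeR), and its left-out range ran between -1.29 (T16 replicate 3 out) and 1.84 (T0 replicate 1 out). ITGA6 made up 59.7% to 96.3% of the TPM of these 3 genes in T16 libraries and 81.1% to 93.8% in T0 libraries.

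ITGA2, the collagen receptor subunit, had 43.6, 43.6 and 22.2 TPM in T16 libraries, against 18.0, 39.6 and 22.6 TPM in T0 libraries. The groups overlapped, and the log2 fold change was 0.54 (SE 0.38, adjusted p = 0.617 by edgeR). It was the largest positive change among the members, and it kept its sign with each library left out (0.33 to 0.83).

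**Figure D3:**
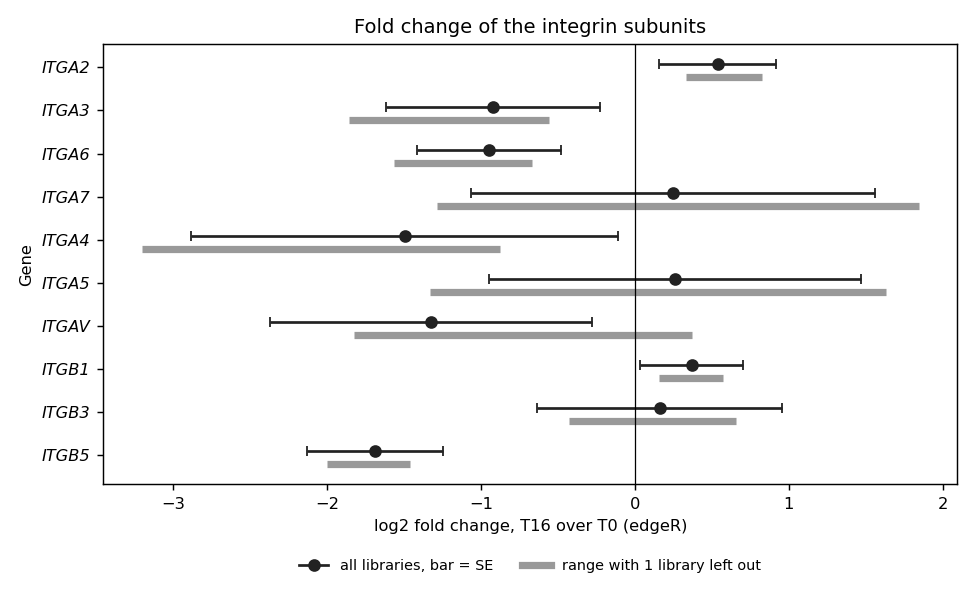
Log2 fold change of each subunit gene, T16 over T0, by edgeR with its SE (black), and the range of the same value when each library is left out in turn (grey). ITGB5 stays between -2.00 and -1.46 and ITGA6 between -1.57 and -0.67, whereas the grey bars of ITGA5, ITGA7, ITGAV and ITGB3 cross 0.

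By mean TPM, the order in T16 libraries was ITGAV (284), ITGB5 (97.3), ITGB1 (87.1), ITGA5 (82.7), ITGA6 (68.1), ITGA2 (36.5), ITGB3 (8.99), ITGA7 (8.48), ITGA3 (4.34) and ITGA4 (0.486). In T0 libraries it was ITGAV (721), ITGB5 (343), ITGA6 (139), ITGA5 (76.1), ITGB1 (71.8), ITGA2 (26.7), ITGB3 (8.85), ITGA3 (8.72), ITGA7 (7.77) and ITGA4 (1.52). Most neighbours in these orders had overlapping ranges. In T16 libraries, only ITGA2 lay wholly above its next gene ITGB3, and ITGA3 above ITGA4. In T0 libraries, ITGB5 lay wholly above ITGA6, ITGB1 above ITGA2 and ITGA2 above ITGB3. The summed alpha subunits came to 485 TPM (SD 216, n = 3) in T16 libraries and 981 TPM (SD 896, n = 3) in T0 libraries, so that the alpha sum, unlike the beta sum, overlapped between the groups.

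Some members shared their pattern over the libraries. These correlations of log2 CPM over 6 libraries are descriptions, and the points share their group and their cell makeup. ITGA5 and ITGA7 had a Pearson r of 0.996, and each followed ITGB3 with 0.891 for ITGA5 and 0.866 for ITGA7. ITGA3 and ITGB5 had 0.896, and ITGA6 and ITGB1 had -0.837. Of the 7 stroma markers, LUM, a proteoglycan of collagen fibrils, and COL1A1 followed the library order of ITGA5 within each group. LUM had 0.0718, 188 and 389.8 TPM in T16 replicates 1, 2 and 3 and 265, 198 and 96.4 TPM in T0 replicates 1, 2 and 3. COL1A1 had 4.68, 17.7 and 132 TPM in T16 libraries and 97.9, 52.6 and 34.0 TPM in T0 libraries. DCN, COL3A1, PDGFRA, TCF21 and OGN did not follow this order in both groups. DCN, a proteoglycan related to LUM, had 152, 165 and 121 TPM in T16 libraries and 199, 489 and 461 TPM in T0 libraries. The 7 summed to 271, 573 and 1022 TPM in T16 libraries and 955, 845 and 802 TPM in T0 libraries, and their mean log2 CPM was 2.36, 4.97 and 6.47 in T16 libraries and 5.46, 5.83 and 5.82 in T0 libraries. The part of stroma cells in the ITGA5 and ITGA7 levels was not tested. All 7 stroma markers had counts in T16 replicate 3 and in T0 replicates 2 and 3, whereas TCF21 was at 0 in replicate 1 of both groups and OGN in T16 replicate 2.

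Among 9990 other genes whose log2 CPM averaged 3 or more, up to 3 of those most like each of 5 members were picked by Pearson r over the 6 libraries. ITGB5 was closest to PTOV1 (0.997), VWA5A (0.995) and GIGYF1 (0.994). ITGAV was closest to AARS2 (0.997), DHTKD1 (0.993) and NES (0.992), and ITGA5 to NDUFS6 (0.992), RNF181 (0.992) and CD63 (0.990). ITGA6 was closest to SASH1 (0.991), APOBEC3H (0.989) and SLC12A7 (0.987), and ITGB1 was close to RHOC (0.981) and MANF (0.979). These values describe 6 libraries only.

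The files give levels for 25 RefSeq transcripts of the 10 genes. Although the total of ITGB1 was steady, its split between transcripts was not. The 3869-base transcript held 50.7%, 63.6% and 50.6% of ITGB1 TPM in T16 replicates 1, 2 and 3, against 92.2%, 97.4% and 69.3% in T0 replicates 1, 2 and 3. The 3668-base transcript held 44.2%, 24.4% and 32.8% in T16 libraries, against 6.20%, 0.631% and 11.6% in T0 libraries. These were the only transcripts of the 10 genes whose shares did not overlap between the groups. Both are shares of 1 gene, so a rise in 1 of them goes with a fall in the other. How many transcripts of all genes had separated shares was not counted. In level, the 3668-base transcript averaged 30.2 TPM (SD 12.3, n = 3) in T16 libraries and 4.48 TPM (SD 3.83, n = 3) in T0 libraries. In a fit over 33515 transcripts its log2 fold change was 2.72 (SE 1.00), with an unadjusted p of 0.0319 and adjusted p-values of 0.433 by edgeR and 0.0940 by DESeq2. edgeR called 0 of all transcripts (3147 at an unadjusted p under 0.05), and DESeq2 called 5.56%. This transcript was singled out after its values were seen, and the files hold no estimate of the error with which reads were divided between transcripts of 1 gene.

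**Figure D4:**
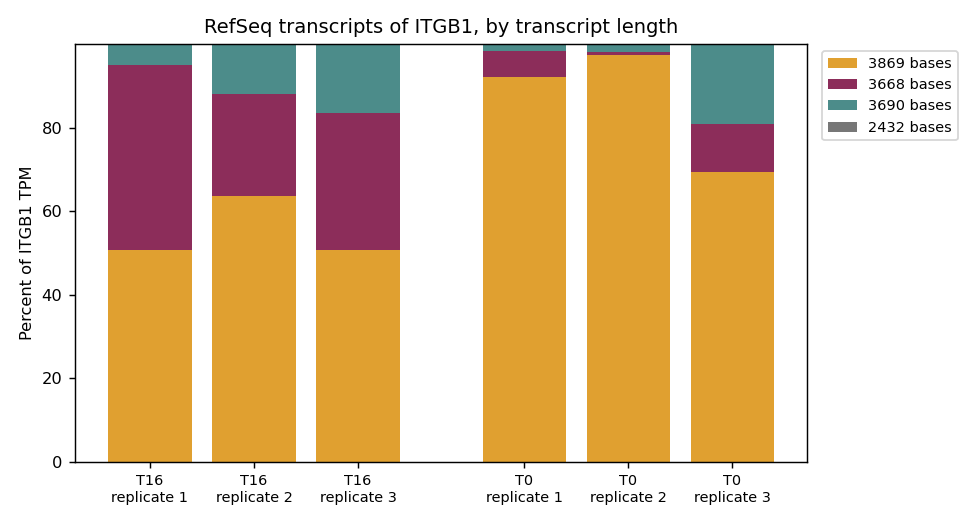
Share of each RefSeq transcript in the TPM of ITGB1 for each library, with transcripts named by length and T16 libraries left of T0 libraries. The 3668-base transcript takes 24.4% to 44.2% in T16 libraries and 0.631% to 11.6% in T0 libraries.

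No transcript of the other genes had shares that were separated between the groups. The 7378-base transcript of ITGAV held 73.4% to 87.7% of its TPM in T16 libraries and 77.2% to 85.6% in T0 libraries. For ITGB5 the 2850-base transcript held 80.6% to 90.8% in T16 libraries and 85.1% to 89.9% in T0 libraries, and both ITGB5 transcripts were lower in every T16 library than in any T0 library. The 2850-base transcript of ITGB5 had a log2 fold change of -1.86 (adjusted p = 0.198 by edgeR and 0.00448 by DESeq2) and was the only 1 of 18 tested transcripts of the members that DESeq2 called. The low genes ITGA7 and ITGA4 had splits that varied widely between libraries. The 4122-base transcript of ITGA7 held 0%, 45.6% and 24.2% of its TPM in T16 libraries, against 38.9%, 79.7% and 88.4% in T0 libraries, and in T16 replicate 1 all of it was assigned to a 3358-base transcript. The 3480-base transcript of ITGA4 held 100%, 100% and 0% in T16 libraries, against 45.3%, 11.6% and 100% in T0 libraries.

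Of 16 further integrin genes looked for, 13 were found and 7 had enough counts for the test. None was called by edgeR or by DESeq2, none had an unadjusted p under 0.05 by edgeR, and their median log2 fold change was -0.99. ITGB4, the partner of ITGA6 in hemidesmosomes, had 4.09, 0.541 and 1.34 TPM in T16 libraries, against 3.13, 6.90 and 8.20 TPM in T0 libraries, with a log2 fold change of -1.49 (adjusted p = 0.471 by edgeR). ITGB8, which activates latent TGF-beta with ITGAV, had 0.149, 16.6 and 3.28 TPM in T16 libraries, against 10.2, 3.45 and 1.21 TPM in T0 libraries, with overlapping groups (adjusted p = 0.948 by edgeR). ITGAL and ITGB2, the subunits of a leukocyte integrin, and ITGB6, an epithelial subunit, had 0 counts in all 6 libraries, which allows up to 3 counts or 0.0906 to 0.151 CPM per library, counting error only.

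Inside the cell, integrins are activated by talin and kindlins and signal through adaptors and kinases. Of 32 such genes, 31 were tested, 18 with a positive and 13 with a negative log2 fold change, and the median was 0.38, against -0.08 over all genes. edgeR called none of them, with 6 higher and 4 lower at an unadjusted p under 0.05, beside 8.61% of all genes higher and 5.14% lower. DESeq2 called 4 higher and 3 lower, beside 4.04% of all genes called higher and 2.92% called lower. In CPM, the T16 libraries lay wholly above the T0 libraries for 8 of the 31 and wholly below for 5, beside 13.2% and 10.6% of all genes.

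The activator FERMT2, a kindlin that binds the beta subunit tail, had 103, 64.2 and 94.6 TPM in T16 libraries, against 28.4, 34.3 and 55.6 TPM in T0 libraries. RAP1B, a small GTPase that brings talin to integrins, had 568, 316 and 336 TPM in T16 libraries, against 192, 128 and 152 TPM in T0 libraries. Both were separated between the groups, with log2 fold changes of 1.40 for FERMT2 (adjusted p = 0.145 by edgeR and 0.0393 by DESeq2) and 1.45 for RAP1B (adjusted p = 0.157 by edgeR and 0.0173 by DESeq2). TLN1, the talin that links the beta tail to actin, had 34.0, 86.2 and 39.1 TPM in T16 libraries, against 99.1, 68.8 and 44.2 TPM in T0 libraries, with overlapping groups (adjusted p = 0.833 by edgeR). The focal adhesion kinase PTK2 had 93.3, 73.6 and 62.9 TPM in T16 libraries, against 43.7, 44.5 and 31.6 TPM in T0 libraries. Its groups did not overlap, and its log2 fold change of 1.02 missed the threshold with both tools (adjusted p = 0.209 by edgeR and 0.0599 by DESeq2). The kinases FYN and SRC had log2 fold changes of 0.44 and -0.12, and their groups overlapped.

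Among the adaptors named for their level, ILK, PARVA and CRK had log2 fold changes of 0.28, 0.77 and 0.54, and in the group of other regulators the tetraspanin CD151, the actin crosslinker FLNA and the ITGB1 tail binder ITGB1BP1 had -0.44, 0.67 and -0.09. All of these overlapped between the groups. The remaining genes called by DESeq2 were picked out after their values were seen. FERMT1, the epithelial kindlin, had a log2 fold change of 2.38 (adjusted p = 0.158 by edgeR and 0.00928 by DESeq2). BCAR1, a docking protein of focal adhesions, had 155, 81.7 and 132 TPM in T16 libraries, against 36.3, 25.8 and 16.1 TPM in T0 libraries (log2 fold change 2.31, adjusted p = 0.108 by edgeR and 0.000478 by DESeq2). The called adaptors below 0 were LIMS2, a partner of ILK (-3.57, adjusted p = 0.239 by edgeR and 0.0173 by DESeq2), and the tensins TNS2 (-2.61, adjusted p = 0.107 by edgeR and 7.14e-05 by DESeq2) and TNS3 (-2.47, adjusted p = 0.171 by edgeR and 0.00676 by DESeq2). LIMS2 was low, with 0.0369 to 0.814 TPM in T16 libraries and 5.32 to 7.72 TPM in T0 libraries. Its estimated counts summed to 49 in T16 libraries and 569 in T0 libraries. Tensins bind beta tails in long-lived adhesions. TNS3 had 1.60, 12.1 and 4.14 TPM in T16 libraries, against 30.7, 42.6 and 33.3 TPM in T0 libraries, so that its groups were far apart. With 1 library left out at a time, DESeq2 kept from 2 to 7 of these 7 calls, and it kept BCAR1 and TNS2 each time. It kept the fewest without T0 replicate 2, where it called 313 genes in all, against 1019 with all libraries.

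**Figure D5:**
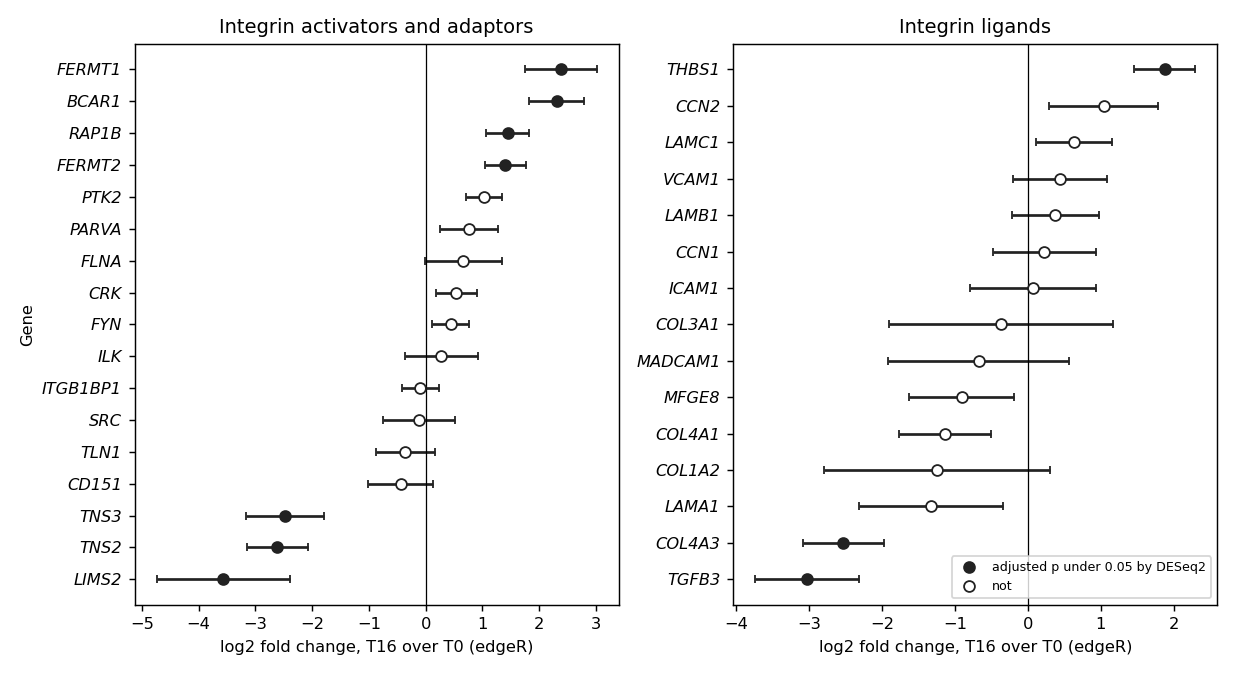
Log2 fold changes, T16 over T0, by edgeR with SE for the named activators and adaptors (left) and the named ligands (right), sorted by value. Filled points had an adjusted p under 0.05 by DESeq2, none passed by edgeR, and FERMT1 (2.38) and LIMS2 (-3.57) lie at the ends on the left, THBS1 (1.88) and TGFB3 (-3.02) on the right.

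Of 39 ligand genes, 38 were found and 32 were tested, 12 with a positive and 20 with a negative log2 fold change (median -0.47). edgeR called none (2 higher and 3 lower at an unadjusted p under 0.05), and DESeq2 called 1 higher and 2 lower. Over all genes tested these shares were 8.61% higher and 5.14% lower at an unadjusted p under 0.05, and 4.04% higher and 2.92% lower by DESeq2. All 9 collagen chains had a log2 fold change below 0, with a median of -1.52, against -0.08 over all genes. The T16 libraries lay wholly below the T0 libraries in CPM for 2 of the 9, beside 10.6% of all genes. COL1A2, a fibrillar collagen chain of stroma, had 2.43, 159.9 and 634 TPM in T16 libraries, against 1488, 351 and 265 TPM in T0 libraries, and COL3A1 and COL4A1 had log2 fold changes of -0.36 and -1.14. COL4A3, a type IV chain, had 15.0, 4.27 and 5.85 TPM in T16 libraries, against 25.3, 68.3 and 65.1 TPM in T0 libraries (log2 fold change -2.53, adjusted p = 0.122 by edgeR and 0.00101 by DESeq2).

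Of 10 laminin chains, the ligands of ITGA3, ITGA6 and ITGA7, 7 were tested, 4 with a positive and 3 with a negative log2 fold change (median 0.27), and none was called by edgeR (0 at an unadjusted p under 0.05) or by DESeq2. LAMB1, LAMA1 and LAMC1, the chains with the highest level, had overlapping groups and log2 fold changes of 0.38, -1.33 and 0.63. FN1, the fibronectin bound by ITGA5, had 0.00810, 4.40 and 67.5 TPM in T16 libraries, against 84.7, 44.4 and 84.0 TPM in T0 libraries, so that only T16 replicate 3 reached the T0 range (adjusted p = 0.828 by edgeR). The RGD protein MFGE8, a ligand of ITGAV with ITGB3 or ITGB5, was abundant in every library, with 269.5, 1615 and 767 TPM in T16 libraries, against 1509, 2948 and 949 TPM in T0 libraries (log2 fold change -0.91, adjusted p = 0.662 by edgeR).

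THBS1, a matricellular ligand of several integrins, had 51.7, 38.7 and 44.6 TPM in T16 libraries, against 18.4, 10.7 and 9.56 TPM in T0 libraries (log2 fold change 1.88, adjusted p = 0.123 by edgeR and 0.00231 by DESeq2). TGFB3, whose latent form is bound by ITGAV receptors, had 0.677, 2.64 and 1.42 TPM in T16 libraries, against 9.52, 20.9 and 12.1 TPM in T0 libraries (log2 fold change -3.02, adjusted p = 0.132 by edgeR and 0.000398 by DESeq2). THBS1, TGFB3 and COL4A3 were named here after their values were seen, and each was separated between the groups. DESeq2 kept these 3 calls with any 1 library left out except T0 replicate 2, without which it kept none of them. In that setting it called 313 genes in all, against 1019 with all libraries. CCN2 and CCN1, matricellular ligands named for their level, had log2 fold changes of 1.04 and 0.22, and the surface ligands VCAM1, ICAM1 and MADCAM1 had 0.44, 0.07 and -0.67, all with overlapping groups. VTN, the vitronectin bound by ITGAV with ITGB5, was at or below 0.0847 TPM in every library and was not tested.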

How the data were processed

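Reads were trimmed by the authors (Trim Galore, fastp) and quantified with Salmon on RefSeq transcripts of ARS-UCD1.3, and the authors deposited estimated counts and TPM per transcript beside transcript lengths. From these deposited files, TPM were added up per gene, and estimated counts were added up and then rounded. Symbols were looked up in a RefSeq table of a different assembly, ARS-UCD2.0, and its coordinates were not used. Of 76123 transcripts 50205 matched, which held 89.1% to 90.3% of the counts, and the rest were left out. Expression of ITGA1, ITGAE, ITGAX, THBS2 and GP1BA was not analysed here.

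T16 was compared with T0 by the quasi-likelihood test of edgeR 4.0.16 (R 4.3.3) with TMM scaling, on 14639 genes (10 or more counts in 3 or more libraries), and p-values were adjusted over all of them. The SE is the log2 fold change divided by the square root of the test's F. DESeq2 1.42.0 was the alternative, beside a block for the replicate number, size factors of DESeq2, other filters, length offsets and left-out libraries. The scripts were tested on simulated data. The same fits were run on transcripts. Shares and sums are per library and have no test.

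The members and the lists of partners, ligands and cell type markers were chosen with earlier results of these data known. Named genes are all 10 members, other integrin genes with a mean of at least 5 TPM in a group, up to 3 adaptors or ligands per role with the highest mean TPM and any past an adjusted p of 0.05, and up to 3 genes most correlated with each of 5 members. A few genes that these rules would name are not reported and are outside the list counts. The transcript fit and the DESeq2 fits with libraries left out were added after the values were seen. Depth limits low genes, and no sequence of these genes was used.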

Additional observations from a re-analysis of the deposited data

How the results depend on the processing

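edgeR called none of the 10 subunit genes under any setting, and DESeq2 called 1, ITGB5 (log2 fold change -1.75). Over all genes, 6 were called, against 1019 by DESeq2, 11 without a filter on low counts and 0 to 3 with 1 library left out. Without both T0 replicate 1 and T16 replicate 2 edgeR called 0 genes (2263 at an unadjusted p under 0.05). Libraries of the same replicate number did not deviate alike from their group means (correlations -0.44, -0.12 and -0.00469). These values cannot show whether such libraries shared animals, since pools also differ in cell makeup. With the number as a block edgeR called 0 genes (1385 at an unadjusted p under 0.05, of which 2 are members, ITGA6 and ITGB5). ITGB5 was then at -1.77 (adjusted p = 0.446 by edgeR).

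With DESeq2 and 1 library left out, ITGB5 ranged from -2.01 to -1.45, and it was -1.97 without both T0 replicate 1 and T16 replicate 2. With edgeR and 1 library left out, ITGB5 ranged from -2.00 to -1.46, with adjusted p-values by edgeR from 0.124 to 0.550. Of the 10 genes, 6 never changed sign. ITGA5 ranged from -1.33 to 1.63, ITGA7 from -1.29 to 1.84, ITGB3 from -0.43 to 0.66 and ITGAV from -1.83 to 0.37, each lowest or highest without T16 replicate 3, T0 replicate 3 or T0 replicate 1. Without both T0 replicate 1 and T16 replicate 2, ITGAV was at 0.06, ITGA5 at 1.89 and ITGA7 at 2.08. All 10 sign changes among 129 values came with libraries left out, and the cause was not tested. The depth of 1 to 103 counts limits ITGA4, which a filter of 50 counts removed.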
